A study of Mus musculus with 11 samples.

Results

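The genes described here are 4 Notch receptors (Notch1, Notch2, Notch3, Notch4), 4 ligands (Jag1, Jag2, Dll1, Dll4) and 2 target genes (Hey1, Heyl), chosen by symbol and making up 10 of the 24062 genes counted. RNA-seq was carried out on primary lung mesenchymal cells of mouse embryos at embryonic day 15. There were 4 Sp3+/+ (WT), 4 Sp3+/- and 3 Sp3-/- libraries, and the Sp3 deletion was germline, so that it was present in every cell type and at every stage. Cells had been isolated by adhesion to plastic and passaged, so each library held a cultured population rather than lung tissue. No treatment was applied to any group. Libraries are numbered within a genotype. The labels do not say whether libraries of a genotype came from separate embryos or cultures, so p-values measure only the spread between these libraries.

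Notch receptors are transmembrane proteins that are cut by ADAM proteases and then by gamma-secretase when a Jagged or Delta-like ligand on a neighbouring cell engages them. The intracellular domain released by these cuts enters the nucleus, binds RBPJ and a Mastermind coactivator, and turns on genes of the Hes and Hey families of repressors. In lung stroma, Notch3 is best known from pericytes and vascular smooth muscle, where Jag1 is a ligand, whereas Notch4 and Dll4 are genes of endothelium. Sp3, a zinc finger protein of the Sp family, binds GC boxes in promoters and can activate or repress transcription.

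Reads on genes ranged from 9849111 to 59297495 per library. Sp3 itself stood at 92.1, 61.3, 108 and 78.7 CPM (read counts scaled to library size) in WT libraries 1 to 4, at 52.4, 62.5, 70.8 and 56.4 in Sp3+/- libraries and at 18.7, 17.9 and 14.8 in Sp3-/- libraries. Sp3 thus separated the Sp3-/- libraries from all others, while WT and Sp3+/- overlapped, WT library 2 lying within the Sp3+/- range, so Sp3 checks the Sp3-/- labels alone. The titles of the 3 Sp3-/- libraries, of WT library 1 and of Sp3+/- library 4 end without an added number, while the other 6 titles carry one. The labels do not say what this suffix means. It nearly coincides with the Sp3-/- genotype, so values from a fit with the suffix as a term are given beside the results. The suffix was taken from the titles, but the file of Sp3+/- library 4 carries the suffix 2 that its title lacks, and which is right is not known. With that suffix instead, WT library 1 alone ties the Sp3-/- libraries to the rest, 1.15% of all genes were called against WT, and none against Sp3+/- cells, where 1168 genes were at an unadjusted p below 0.05 and Sp3 itself was at -2.11 (adjusted p = 0.133, edgeR). Epithelial markers summed to at most 7.73 CPM in any library.

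Measured per kilobase of exon, Notch2 was the most abundant receptor and Jag1 the most abundant ligand in all 11 libraries. On this scale (RPKM, CPM divided by exon length in kilobases), WT libraries held 21.1 ± 4.98 of Notch2 (SD, n = 4), 4.88 ± 0.877 of Notch3, 2.73 ± 0.295 of Notch1 and 0.372 ± 0.086 of Notch4. Notch3 was above Notch1 in 10 of the 11 libraries, the exception being Sp3-/- library 2. The WT RPKM ranges of these 4 receptors did not overlap. Jag1 in WT libraries was 9.64 ± 2.78 RPKM, far above Jag2 at 0.271 ± 0.0569, Dll1 at 0.161 ± 0.0649 and Dll4 at 0.0238 ± 0.00874. WT ranges of Jag2 and Dll1 met, from 0.226 to 0.347 and from 0.0959 to 0.233 RPKM, and their order is not set by these data. The basic helix-loop-helix repressor Hey1 was at 1.08 ± 0.243 RPKM and its relative Heyl at 0.123 ± 0.0675 RPKM.

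Jag1 made up between 92.9% and 97.4% of the per-length signal of the 4 ligands in the 11 libraries. Among receptors, Notch2 made up between 64.7% and 76.1%. The Notch3 share was 15.8% to 18.8% in WT, 15.9% to 20.9% in Sp3+/- and 11.7% to 13.9% in Sp3-/- libraries, so that the Sp3-/- shares lay below all others. The Notch1 share was 8.57% to 11.2% in WT and 11.3% to 12.8% in Sp3-/- libraries, all within the Sp3+/- range of 6.66% to 13.3%. Exon lengths came from a later annotation than the one used for counting, and the canonical transcript in place of all exons gave Notch3 5.4 RPKM in WT libraries.

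**Figure D1:**
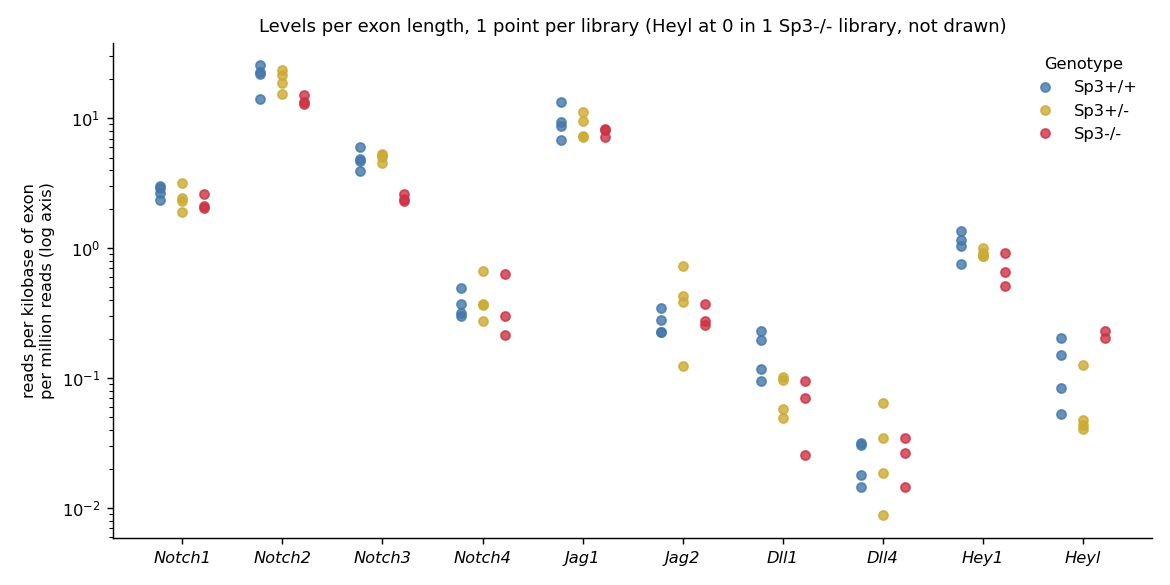
RPKM (log axis) for each gene, with 1 point per library coloured by genotype. Notch2 and Jag1 stand highest in every library, and Dll4 stays at or below 0.0647.

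In the main edgeR fits, Notch3 was the only one of the 10 genes called in either comparison with Sp3-/- cells. Some alternative fits also called Notch2. The sequence before the Notch3 start site is shown, beside that of Notch2, the most abundant receptor. Both are RefSeq sequences of build GRCm38.p6 (mm10), covering the 250 bases before the start, and capitals mark the GC box core GGGCGG on either strand. The Notch3 stretch is chr17:32166891-32167140 on the minus strand, and that of Notch2 is chr3:98013288-98013537 on the plus strand.
Notch3: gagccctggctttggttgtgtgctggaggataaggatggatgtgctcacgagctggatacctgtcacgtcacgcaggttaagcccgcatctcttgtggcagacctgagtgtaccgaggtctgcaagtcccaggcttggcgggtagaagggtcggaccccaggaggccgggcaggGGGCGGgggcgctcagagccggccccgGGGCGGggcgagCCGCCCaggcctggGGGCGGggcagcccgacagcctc
Notch2: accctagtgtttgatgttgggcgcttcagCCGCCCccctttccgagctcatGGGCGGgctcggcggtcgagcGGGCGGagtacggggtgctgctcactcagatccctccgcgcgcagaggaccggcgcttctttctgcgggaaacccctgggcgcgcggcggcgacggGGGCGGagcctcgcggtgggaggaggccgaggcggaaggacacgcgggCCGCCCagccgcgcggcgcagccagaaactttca

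The Notch3 stretch held 4 GC box cores, 3 on the gene's strand and 1 on the other, placed between 76 and 18 bases before the start. All 3 cores on the gene's strand lay within the longer GC box GGGGCGGGG. Over the full RefSeq window of 300 bases, which runs 50 bases past the start, a core was present in 35.7% of 32851 mouse promoter windows and 4 or more cores in 5.49%. The longer box was present in 11.4% of windows, and 3 or more copies in 0.627%. Notch2, with 7 cores and no longer box, and Notch1, with 5 cores and 1 longer box, also held GC boxes. Of the 8 genes with a window, 5 held a core, the others being Jag2 with 5 and Dll4 with 2, and Notch4, Jag1 and Dll1 held none. The RBPJ core TGGGAA, in 25.6% of all windows on either strand, was in none of the 9 windows of these genes. Hey1 and Heyl were not in the promoter table. A match is a description of letters and not of binding.

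Notch3 was about 2-fold lower in Sp3-/- than in WT libraries, and it was the only member called in the main edgeR fit. Of the 10 genes, 8 passed the filter of CPM above 1 in at least 1 library, and Dll1 and Dll4 did not. With edgeR's quasi-likelihood test, 1 of the 8 was called at an adjusted p below 0.05, compared with 18.5% of all 14025 genes tested. The median log2 fold change was -0.28 over the 8 genes and 0 over all genes tested. Because bulk RNA was measured, fewer cells that express a gene and less RNA per cell cannot be told apart.

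Notch3 (chr17:32120820-32166896) is the receptor that maintains vascular smooth muscle and pericytes. Its level was 35, 42.1, 54 and 43.5 CPM in WT libraries 1 to 4, 46.4, 47.8, 40.2 and 44.8 CPM in Sp3+/- libraries and 20.9, 21.4 and 23.3 CPM in Sp3-/- libraries. The 3 Sp3-/- libraries lay together below every other library, whose levels overlapped between WT and Sp3+/-. The log2 fold change of Sp3-/- against WT was -1 (SE 0.16, 95% interval -1.36 to -0.63, adjusted p = 0.0121, edgeR), a 1.99-fold lower level. With the suffix as a term it was -0.84 (adjusted p = 0.0207, edgeR), and with the file suffix for Sp3+/- library 4 it was -0.68 and not called (adjusted p = 0.0841, edgeR). Without Sp3-/- library 2 the size stayed at -0.99 while the adjusted p rose to 0.0553 in edgeR. Among the 5 libraries without a suffix in the title, WT library 1 at 35 CPM and Sp3+/- library 4 at 44.8 CPM both stood above the Sp3-/- libraries. The fit limited to the libraries of WT and Sp3-/- without a suffix, which has 1 WT library, gave -0.69 (adjusted p = 0.389, edgeR) and called 0 genes in all, with 1337 at an unadjusted p below 0.05.

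Notch2 (chr3:98013538-98150367), the receptor with the highest level, was not called, and its values separated the libraries by the suffix of their titles. It was measured at 155, 240, 283 and 251 CPM in WT libraries 1 to 4, at 262, 207, 237 and 171 CPM in Sp3+/- libraries and at 143, 167 and 147 CPM in Sp3-/- libraries. WT library 1 lay among the Sp3-/- libraries, and Sp3+/- library 4 lay just above them. These are the 2 libraries with Sp3 whose titles have no suffix, and the 5 libraries without one, at 143 to 171 CPM, did not overlap the other 6, at 207 to 283 CPM. The log2 fold change against WT was -0.60 (SE 0.20, 95% interval -1.08 to -0.13, adjusted p = 0.0746, edgeR), and was -0.76 without WT library 1 (adjusted p = 0.0062, edgeR), and -0.16 with the suffix as a term (adjusted p = 0.49, edgeR) or -0.02 with the file suffix for Sp3+/- library 4 (adjusted p = 0.973, edgeR). Within each library the log2 ratio of Notch3 to Notch2 counts, a quantity chosen after its values were seen, was between -2.53 and -2.14 in WT, between -2.56 and -1.93 in Sp3+/- and between -2.96 and -2.66 in Sp3-/- libraries.

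Notch1 (chr2:26457902-26503822), the receptor with the widest known use in development, was at 22.2, 27.5, 28.5 and 25.2 CPM in WT libraries and at 19.4, 24.8 and 20.1 CPM in Sp3-/- libraries. The groups overlapped, and the log2 fold change was -0.26 (95% interval -0.59 to 0.07, adjusted p = 0.217, edgeR). Notch4 (chr17:34564286-34588543), the receptor of endothelium, was low, with 40 to 129 reads in WT and 46 to 100 reads in Sp3-/- libraries. Its log2 fold change was 0.00 with an interval from -0.95 to 0.96, so that a change of nearly 2-fold in either direction lies within its error.

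**Figure D2:**
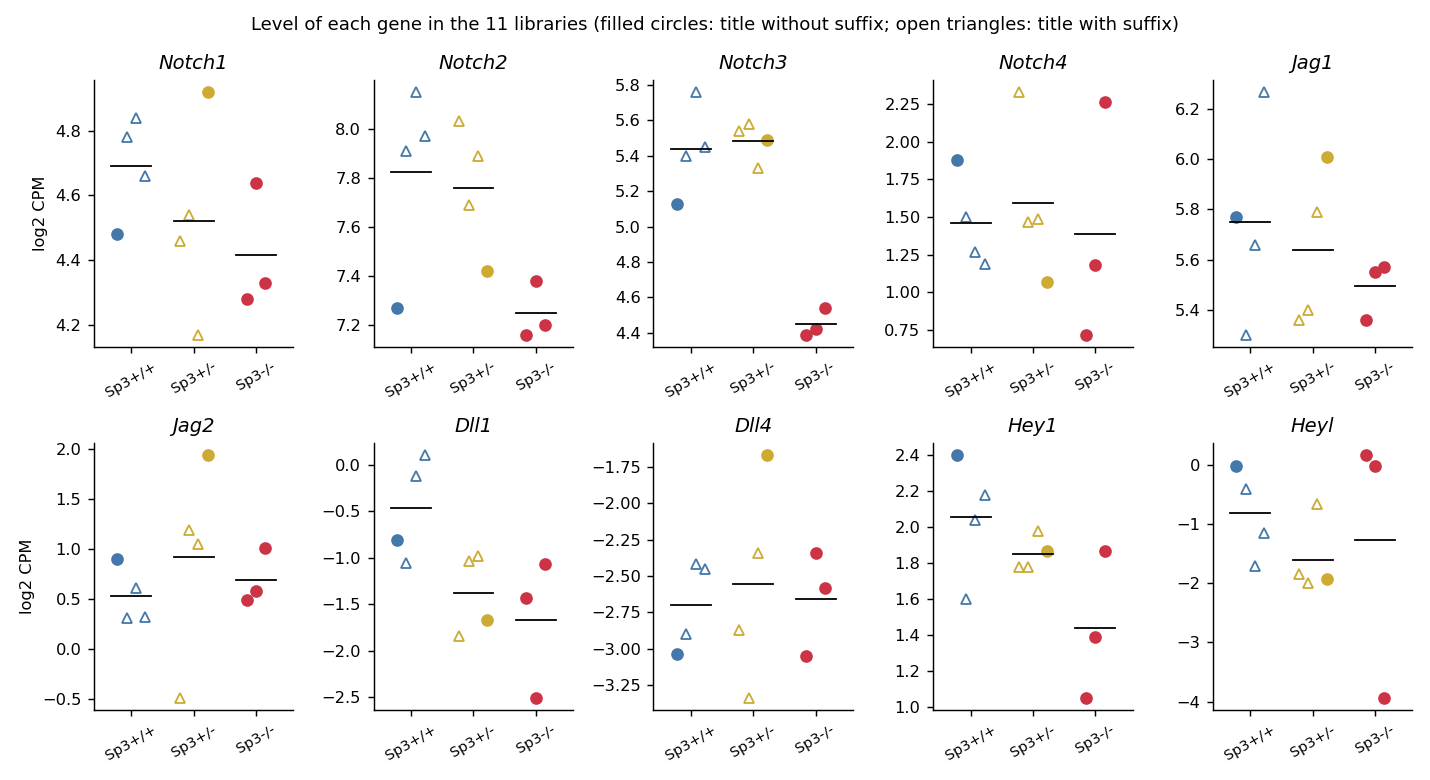
Log2 CPM of each gene in each library by genotype, with a line at the genotype mean; the vertical axes differ between panels and do not start at 0. The 3 Sp3-/- libraries lie below all others for Notch3, while for Notch2 WT library 1 lies among them.

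Among ligands, none was called. Jag1 (chr2:137081451-137116520), a Jagged ligand of smooth muscle and stroma, was at 54.4, 39.3, 50.4 and 77.3 CPM in WT, 41.1, 42.1, 55.3 and 64.4 CPM in Sp3+/- and 41.1, 46.7 and 47.5 CPM in Sp3-/- libraries. The Sp3-/- values lay within the WT range, and the log2 fold change against WT was -0.29 (95% interval -0.80 to 0.22, adjusted p = 0.365, edgeR). Jag2 (chr12:112907803-112929812), the other Jagged ligand, was near the filter, at 1.17 to 1.8 CPM in WT and 1.34 to 1.95 CPM in Sp3-/- libraries. Its log2 fold change was 0.14 (95% interval -0.54 to 0.81).

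The Delta-like ligands were close to the limit of counting. Dll1 (chr17:15367354-15376932) had 18, 6, 21 and 34 reads in WT libraries 1 to 4, 3, 25, 20 and 5 in Sp3+/- and 11, 5 and 4 in Sp3-/- libraries. Pooled over libraries this was 0.728 CPM in WT (exact Poisson 95% interval 0.577 to 0.908) and 0.22 CPM in Sp3-/- libraries (0.134 to 0.339), intervals that cover counting error only. The lowest WT library, at 0.414 CPM, and the highest Sp3-/- library, at 0.41 CPM, were all but equal. When every gene with a count was tested, the log2 fold change of Dll1 was -1.52 (95% interval -2.81 to -0.24, adjusted p = 0.116, edgeR). Dll4 (chr2:119325784-119335666), a ligand of endothelial tip cells, had 1 to 6 reads in every library, and no difference could be detected at that depth.

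Neither target gene was called. Hey1 (chr3:8663359-8667038) was at 5.23, 2.97, 4.06 and 4.47 CPM in WT, 3.37, 3.38, 3.89 and 3.58 CPM in Sp3+/- and 2, 2.56 and 3.59 CPM in Sp3-/- libraries. The Sp3-/- libraries had the lowest 2 values, but Sp3-/- library 3 lay within the WT range. The log2 fold change against WT was -0.65 (SE 0.29, 95% interval -1.33 to 0.04, adjusted p = 0.151, edgeR), and with the suffix as a term it was -0.84 (adjusted p = 0.113, edgeR). Heyl (chr4:123233556-123249870), a target gene known from smooth muscle, had 33, 10, 6 and 13 reads in WT libraries, 3, 11, 26 and 4 in Sp3+/- and 38, 42 and 0 in Sp3-/- libraries. It passed the filter through Sp3-/- library 1 alone. The 0 in Sp3-/- library 3, the smallest library, allows a level of up to 0.307 CPM, within the range of the WT libraries. Sp3-/- libraries 1 and 2, at 1.06 and 0.926 CPM, stood level with WT library 1, at 0.927 CPM, and the log2 fold change had an interval from -1.44 to 2.24.

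No difference was called between Sp3+/- and WT cells. Of the 8 genes tested 0 were called by edgeR, beside 0% of all 14130 genes, with 246 genes at an unadjusted p below 0.05 and 0 calls by DESeq2 and by limma-voom. Notch3 differed by 0.04 on the log2 scale (95% interval -0.23 to 0.30), and Notch2 by -0.08 (95% interval -0.49 to 0.32). Hey1 was at -0.24 (95% interval -0.73 to 0.25). The widest intervals were those of Heyl, from -2.46 to 0.74, and of Jag2, from -0.28 to 1.53. Sp3 itself was at -0.49 (95% interval -0.85 to -0.13, adjusted p = 1, edgeR).

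Against Sp3+/- cells, Sp3-/- cells again had lower Notch3, by -1.04 on the log2 scale (SE 0.13, 95% interval -1.34 to -0.74, adjusted p = 0.00166, edgeR). This comparison and the one with WT share the Sp3-/- libraries. Notch3 was 1 of 8 genes called, with 25.5% of all 14130 genes called in this comparison, and it was called in 19 of 20 alternatives run. The exception was the file suffix for Sp3+/- library 4, where it was at -0.60 (adjusted p = 0.525, edgeR). Notch2 was at -0.53 (95% interval -0.97 to -0.09, adjusted p = 0.075, edgeR), although its Sp3-/- and Sp3+/- ranges did not overlap, at -0.04 with the suffix as a term and at 0.19 with the file suffix (adjusted p = 0.864, edgeR). Jag2 was at -0.50 (adjusted p = 0.438, edgeR), its Sp3+/- libraries being spread over 0.645, 2.21, 2.01 and 3.78 CPM. With the suffix as a term Jag2 was at -1.19 (adjusted p = 0.042, edgeR). In that fit Sp3+/- library 1, the lowest for Jag2, is the only library with its suffix and so has no weight in the comparison of genotypes.

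**Figure D3:**
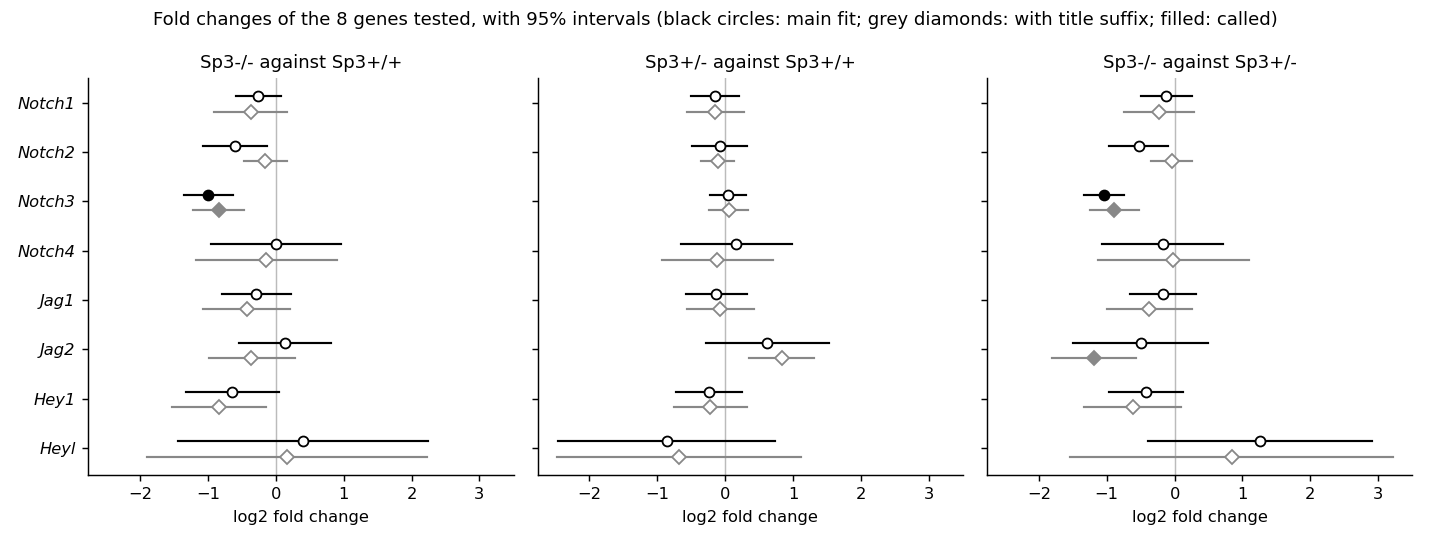
Log2 fold changes of the 8 genes tested, with 95% intervals, in the comparisons of Sp3-/- with WT, Sp3+/- with WT and Sp3-/- with Sp3+/- cells; black circles are the edgeR fit without the suffix, grey diamonds the fit with it, and filled symbols mark adjusted p below 0.05. Notch3 is called in both comparisons with Sp3-/- cells under both fits, and the Notch2 difference moves towards 0 with the suffix.

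The other genes of the pathway were described from a list of 46, of which 43 were tested. Between Sp3-/- and WT cells, 9 rose and 4 fell, or 30.2% beside the 18.5% of all genes, and the median log2 fold change of the 43 was 0.13. With the suffix as a term 3 rose and 3 fell, and 9.41% of all genes were called. With the file suffix for Sp3+/- library 4, Aph1b was the one pathway gene called, beside the 1.15% of all genes. The counts by left-out library ranged from 1, without Sp3-/- library 2, to 15, without WT library 1. It was 2 without WT library 4, 3 without WT library 2 or WT library 3 and 6 without Sp3-/- library 3, and the share of all genes called moved with it, from 2.01% to 29.9%.

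Some genes acting on the receptors before ligand binding rose against WT in the fit without the suffix. Of 6 genes for receptor glycosylation and furin cleavage, the Fringe glycosyltransferases Mfng and Lfng, which alter how receptors respond to Jagged and Delta-like ligands, were called. Lfng was at 3.51, 2.71, 2.27 and 2.71 log2 CPM in WT and 3.99, 4.73 and 4.21 log2 CPM in Sp3-/- libraries, with no overlap and a log2 fold change of 1.49 (SE 0.32, adjusted p = 0.0243, edgeR). Mfng was at 1.47, -0.69, -1.22 and -0.16 log2 CPM in WT and 1.6, 3.14 and 2.88 log2 CPM in Sp3-/- libraries, with a log2 fold change of 2.47 (SE 0.70, adjusted p = 0.049, edgeR). With the suffix as a term neither was called, Lfng being at 1.13 (adjusted p = 0.0605, edgeR) and Mfng at 1.34 (adjusted p = 0.125, edgeR). Over the 7 fits that each left out a library, Lfng was called in 3 and Mfng in 2. For Mfng, WT library 1 was the one WT library near the Sp3-/- values. The third Fringe gene, Rfng, was not called. Pofut1, of the same list, was lower without overlap but not called against WT, at -0.25 (adjusted p = 0.0658, edgeR). Against Sp3+/- cells it was called at -0.24 (adjusted p = 0.0319, edgeR). With the suffix as a term, the 6 genes held 0 higher and 1 lower call against WT. The ligand endocytosis genes held 1 call of 4, the ubiquitin ligase Mib2, at 0.42 (adjusted p = 0.0246, edgeR). Mib2 was at 0.37 with the suffix as a term (adjusted p = 0.0578, edgeR) and was called in 3 of the 7 fits that each left out a library.

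The genes of the proteases that cut Notch moved in both directions. Adam17, a sheddase, was at 0.81 (SE 0.17, adjusted p = 0.0229, edgeR) and the presenilin gene Psen2 at 1.03 (SE 0.24, adjusted p = 0.0303, edgeR). With the suffix as a term Adam17 was at 0.67 (adjusted p = 0.0559, edgeR) and Psen2 at 0.58 (adjusted p = 0.0801, edgeR). Adam17 and Psen2 were each called in 2 of the 7 fits that each left out a library. Aph1b, a gamma-secretase subunit, fell. It was at 4.9, 4.68, 5.15 and 5.01 log2 CPM in WT, 4.7, 5.04, 4.89 and 4.9 log2 CPM in Sp3+/- and 3.75, 3.74 and 3.96 log2 CPM in Sp3-/- libraries. Its log2 fold change of -1.13 (SE 0.14, adjusted p = 0.00803, edgeR) was kept at -1.09 with the suffix as a term (adjusted p = 0.00758, edgeR) and with the file suffix (adjusted p = 0.0358, edgeR), and no left-out library ended its call in the 7 fits. Adam10, the main sheddase of ligand-bound Notch, was not called.

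Of 12 genes of the nuclear complex and co-repressors, the coactivator Maml2 fell by 0.97 on the log2 scale (SE 0.22, adjusted p = 0.0277, edgeR) and Spen, a co-repressor that binds RBPJ, rose by 0.48 (adjusted p = 0.0261, edgeR). Maml2 and Spen were each called in 2 of the 7 fits that each left out a library. With the suffix as a term Maml2 was at -0.45 (adjusted p = 0.112, edgeR). Rbpj was at 0.22 (95% interval -0.08 to 0.51). Of 8 negative regulators, 2 rose and 2 fell. Numb, an inhibitor of the receptors, was at 0.72 (SE 0.12, adjusted p = 0.0128, edgeR) and kept its call with the suffix as a term at 0.54 (adjusted p = 0.0215, edgeR), but not with the file suffix for Sp3+/- library 4, at 0.49 (adjusted p = 0.142, edgeR). Its relative Numbl was at -0.51 (adjusted p = 0.0313, edgeR), was at -0.53 with the suffix as a term (adjusted p = 0.0573, edgeR) and was called in 2 of the 7 fits that each left out a library. Dtx1, a Deltex ubiquitin ligase that is also a Notch target in lymphocytes, was at 2.02, 0.84, 1.94 and 1.79 log2 CPM in WT and -1.23, -0.3 and 0.12 log2 CPM in Sp3-/- libraries. Its log2 fold change was -2.26 (SE 0.46, adjusted p = 0.0214, edgeR), -2.38 with the suffix as a term (adjusted p = 0.0213, edgeR) and -2.58 with the file suffix (adjusted p = 0.0559, edgeR). Dtx1 was called in 4 of the 7 fits that each left out a library, and its Sp3-/- libraries held 13, 34 and 10 reads. Dtx2 was at 0.59 (adjusted p = 0.0304, edgeR) and was called in 1 of the 7 fits that each left out a library.

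The other target genes and ligands on the list were not called. Hes1, a repressor induced by Notch in many tissues, was at -0.31 (95% interval -0.76 to 0.14, adjusted p = 0.274, edgeR) and Hey2 at -0.43 (95% interval -1.16 to 0.30). Hes5 and Nrarp did not pass the filter. Of the non-canonical ligands, Dlk1 was at 2.01 (95% interval 0.61 to 3.41, adjusted p = 0.0556, edgeR) and Dner at -1.81 (95% interval -3.10 to -0.53, adjusted p = 0.057, edgeR). Against Sp3+/- cells, 11 of the 43 genes rose and 6 fell in Sp3-/- cells, beside 25.5% of all genes called, and with the suffix as a term 2 rose and 1 fell, beside 5.4%. Between Sp3+/- and WT cells 0 of the 43 were called by edgeR, DESeq2 or limma-voom.

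**Figure D4:**
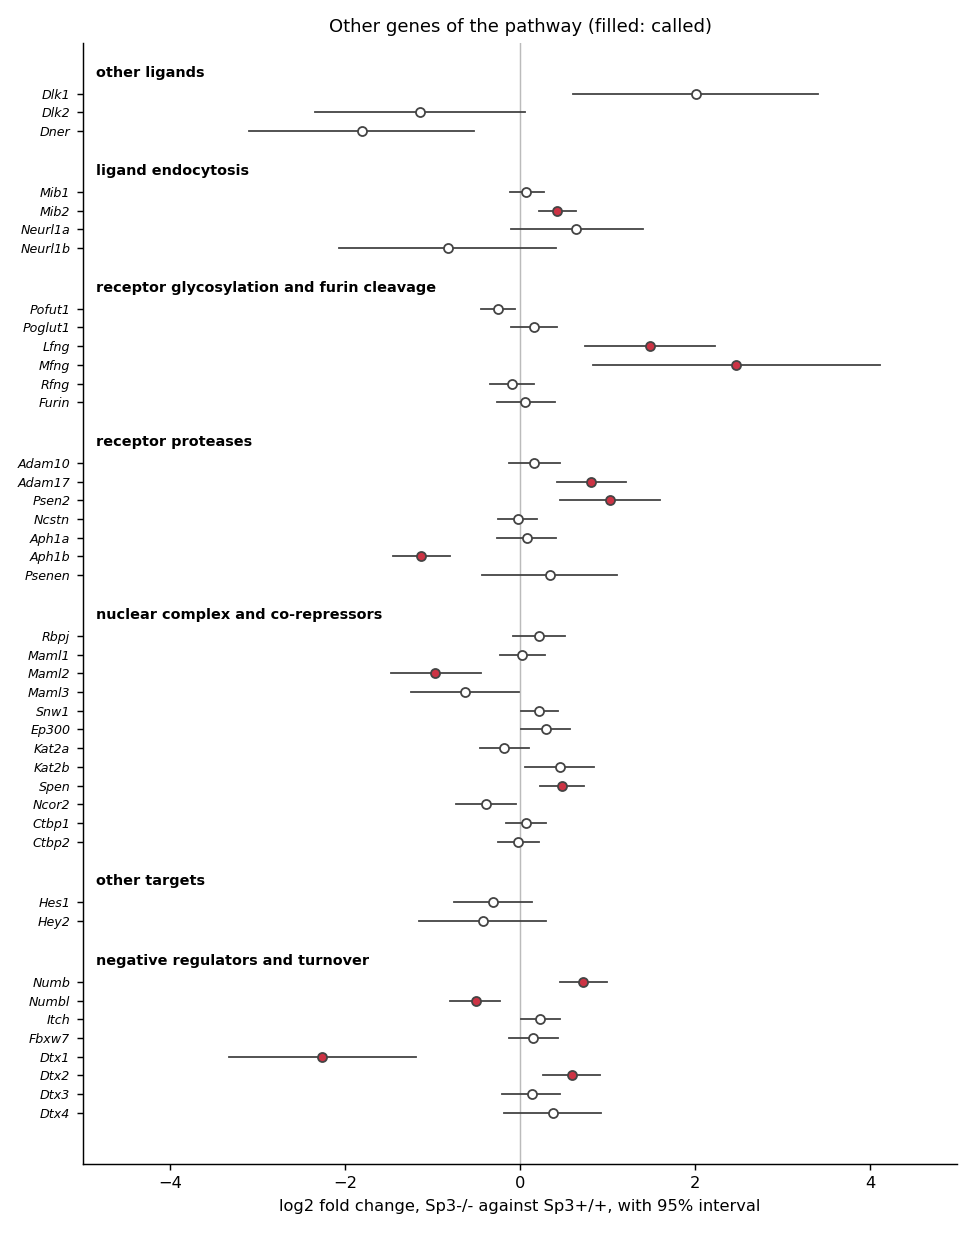
Log2 fold changes of Sp3-/- against WT cells, with 95% intervals, for 42 of the 43 other pathway genes tested, grouped by role; filled points mark adjusted p below 0.05. Mfng and Lfng lie farthest to the right and Dtx1 farthest to the left among the called genes shown.

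Cell type markers also differed between the libraries, by genotype or by the suffix of the titles. Mural markers (11 genes of pericytes and smooth muscle, such as Pdgfrb, Acta2 and Myh11, without Notch3) summed to 11500 to 23600 CPM in WT, 14100 to 20100 CPM in Sp3+/- and 4190 to 5060 CPM in Sp3-/- libraries. Of the 11, 7 fell against WT beside 18.5% of all genes called, and 6 fell with the suffix as a term beside 9.41%. Against Sp3+/- cells 8 fell beside 25.5%, and 6 fell with the suffix as a term beside 5.4%. The largest parts of the WT sum were Acta2, at 5070 to 10700 CPM, and Tagln, at 3530 to 6570 CPM. The paper treats Acta2 as a myofibroblast marker. Des overlapped, at 924 to 2130 CPM in WT and 819 to 2380 CPM in Sp3-/- libraries. Rgs5, Abcc9 and Kcnj8 were at most 7.28 CPM in any library, and 2 of the 11 had a log2 fold change above 0 against WT. The sum did not overlap between Sp3-/- and the other libraries, as for Notch3, and the part of mural cells in the Notch3 difference was not tested. Macrophage markers (10 genes) summed to 232 to 1230 CPM in WT, 139 to 958 CPM in Sp3+/- and 1160 to 3740 CPM in Sp3-/- libraries. Libraries without a suffix in the title, at 958 to 3740 CPM, did not overlap those with one, at 139 to 272 CPM. Among the 10, 4 rose against WT beside the 18.5% of all genes, and 0 were called with the suffix as a term beside 9.41%, where their median log2 fold change was 1.11. Against Sp3+/- cells 9 rose beside 25.5%, and 0 were called with the suffix as a term beside 5.4%. The highest WT sum was in library 1, which also had the highest WT level of Mfng, Lfng, Psen2, Adam17 and Numb. It did not have that of Mib2, Spen or Dtx2. Psen2 was at 47.5 CPM there, at 26.8 to 29.6 CPM in the other WT and at 50.6 to 75.5 CPM in Sp3-/- libraries. The part of macrophages in the rise of any of these genes was not tested.

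Endothelial markers (14 genes) summed to 37.9 to 105 CPM in WT, 44.9 to 86.6 CPM in Sp3+/- and 88 to 129 CPM in Sp3-/- libraries. Cldn5, Sox17 and Sox18 were under 1 CPM in every library, as Dll4 was, but other endothelial genes were present. Kdr, a VEGF receptor, was at 20.6 to 59.5 CPM in WT and 17.5 to 35.4 CPM in Sp3-/- libraries, and Vwf, the von Willebrand factor gene, at 5.11 to 20.9 CPM and 20.2 to 71.2 CPM. Esam, at 2.22 to 6.29 CPM in WT and 9.6 to 21.9 CPM in Sp3-/- libraries, was higher without overlap. Erg, at 0.71 to 3.94 CPM and 0.154 to 0.205 CPM, was lower without overlap. Of the 11 endothelial markers tested, 3 rose and 1 fell against WT beside the 18.5% of all genes, with a median log2 fold change of 0.02. None was called with the suffix as a term, beside 9.41%, and their median was then -1.16. Against Sp3+/- cells 2 of the 11 rose and 1 fell beside 25.5%, and 0 were called with the suffix as a term beside 5.4%. The part of endothelial cells in Notch4 and Dll4 was not tested.

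Markers of lung mesenchyme, the labelled population (9 genes, such as Col1a1 and Tcf21), summed to 12900 to 21600 CPM in WT, 14700 to 21600 CPM in Sp3+/- and 7170 to 18800 CPM in Sp3-/- libraries. This sum, too, divided by suffix, at 7170 to 18800 CPM in libraries without one in the title and 20200 to 21600 CPM in the others. Of the 9, 3 fell against WT beside the 18.5% of all genes, and 1 rose and 1 fell with the suffix as a term beside 9.41%. Foxf1, a transcription factor of lung mesenchyme, was at 27.4 to 58.6 CPM in WT and 6.95 to 25.8 CPM in Sp3-/- libraries, ranges that did not overlap. Others did, such as Tcf21, at 1.97 to 11.7 CPM in WT and 5.12 to 15.4 CPM in Sp3-/- libraries. Of the 9, 2 had a log2 fold change above 0 against WT and 7 below 0. Mesothelial markers summed to 551 to 1220 CPM in WT, 1140 to 2080 CPM in Sp3+/- and 1280 to 4590 CPM in Sp3-/- libraries. Of the 6 tested, 2 rose against WT beside the 18.5% of all genes, and 1 rose with the suffix as a term beside 9.41%. Proliferation markers summed to 190 to 566 CPM in WT, 216 to 416 CPM in Sp3+/- and 157 to 301 CPM in Sp3-/- libraries. By suffix they were at 157 to 301 CPM without one in the title and 328 to 566 CPM with one. Of the 8, 0 were called against WT in either fit, and their median log2 fold change was -0.97, or 0.1 with the suffix as a term. Against Sp3+/- cells 4 of 9 lung mesenchyme markers fell, beside 25.5% of all genes. In that comparison 1 of 6 mesothelial and 1 of 8 proliferation markers rose. With the suffix as a term 0 markers of these 3 lists were called, beside 5.4%.

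**Figure D5:**
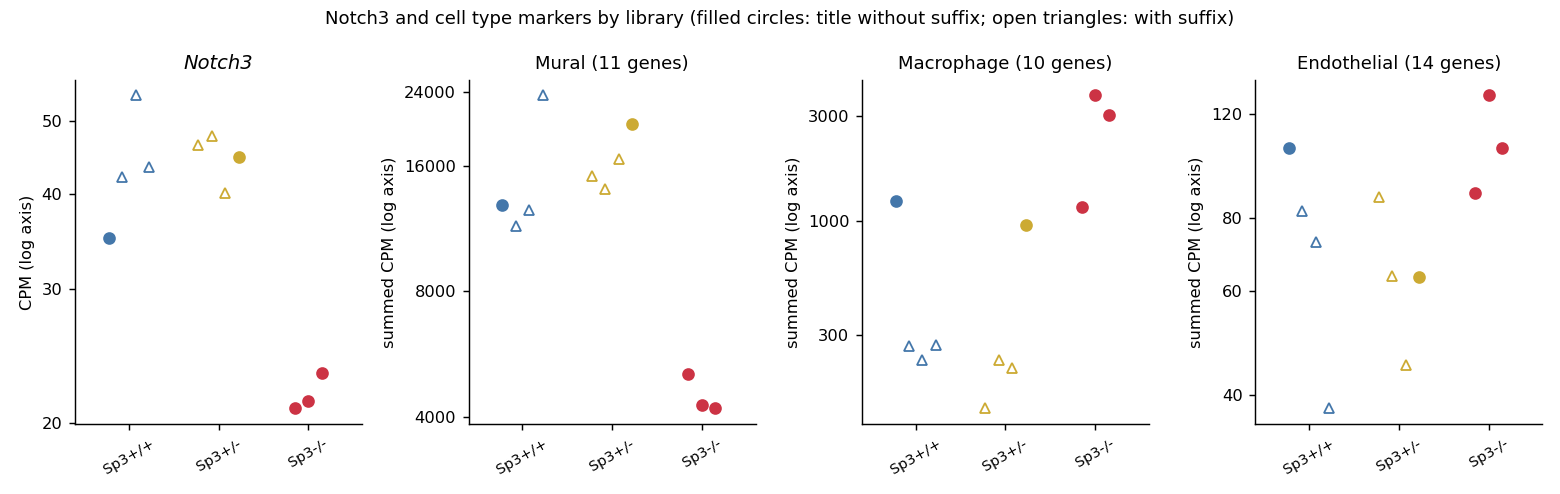
Notch3 CPM and summed CPM of mural, macrophage and endothelial markers in each library (log axes), by genotype, with filled circles for titles without a suffix. Notch3 and the mural sum are lowest in the 3 Sp3-/- libraries, while the macrophage sum of WT and of Sp3+/- cells is highest in the library without a suffix.

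Likeness of pattern over the 11 libraries was measured by Pearson's r of log2 CPM across 11203 genes with a mean above 2, as a description of points that share genotype, suffix and depth. Notch2 was most like Epha7 (r = 0.974), Zfp503 (r = 0.972) and Ptrh2 (r = 0.972). Jag1 was most like Senp5 (r = 0.961), Bysl (r = 0.908) and 2700097O09Rik (r = 0.895), and Hey1 was most like Pappa (r = 0.96), St6galnac4 (r = 0.936) and Cacna1g (r = 0.935).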

How the data were processed

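Counts per gene symbol were deposited by the authors, who sequenced 50 bp single end TruSeq reads, checked them with FastQC 0.10.1, aligned them to mm10 with STAR 2.4.5a and counted them with HTSeq; neither the annotation nor the use of strand is given in the sources used here, and reads of overlapping or antisense genes cannot be told apart. The deposited counts were used as they stand, and 5 tallies of reads on no gene, which were 38.4% to 40.9% of all tallied reads, were left out. Each gene over 1 CPM in any library of a fit entered edgeR 4.0.16 (robust quasi-likelihood, TMM) in R 4.3.3, with Benjamini-Hochberg adjustment over all genes tested and calls at an adjusted p below 0.05. Sp3-/- against WT used 7 libraries and the comparisons with Sp3+/- all 11. Log2 CPM values carry a prior count of 2. CPM values in the text include the TMM factor, which the filter does not. Depth limits low genes: 3 counts in the smallest library are 0.307 CPM. Standard errors and 95% intervals are those implied by the test.

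Alternatives were DESeq2 1.42.0, limma-voom (limma 3.58.1) with and without a consensus correlation, library size alone, no filter or filterByExpr, other sets of libraries in the fit, a block for the first number of the title, a covariate for its suffix (from the title, or from the file name for Sp3+/- library 4), only the libraries that lack a suffix, and each library left out. The genes, lists and tests were chosen with earlier results of these data known. Named genes were all 10 members, the list genes called between Sp3-/- and WT with values for the 8 that changed most, and the 3 genes most like the highest receptor, ligand and target. For 1 gene of the pathway list, which is counted but not shown, no result is given. Values of other list and marker genes were added after they were seen. Exon lengths came from GENCODE vM39 (GRCm39) and were used for levels only, and positions and promoters came from RefSeq GRCm38.p6. The fits were tested on simulated data. Pairs of libraries within a genotype differed beyond counting noise, their chi-square over its degrees of freedom being 15.8 or more.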

Additional observations from a re-analysis of the deposited data

Results flagged for a closer look

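Of 20 groups of 4 libraries tested for a single value far from the rest, 1 was flagged, as chance flags about 1 in 20. Heyl in Sp3+/- library 3 was at -0.65 log2 CPM, against -2 to -1.84 in the other Sp3+/- libraries, and rests on 26 reads.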

How the results depend on the processing

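Between Sp3-/- and WT cells, Notch3 was called in 15 of 18 alternatives, at -1.09 to -0.68, and not called without Sp3-/- library 2, among the libraries without a suffix only or with the file suffix for Sp3+/- library 4, an alternative chosen after seeing the data. Notch2 was called in 4 of 18, and in 4 of 20 between Sp3-/- and Sp3+/- cells. The count of members called, 1 beside 18.5% of all genes, became 2 with DESeq2, beside 30.7%. It was also 2 with all 11 libraries in 1 fit, beside 28.1%, and with the first title number as a replicate block, beside 28.7%. It became 0 with the file suffix, beside 1.15%. Over left-out libraries it ranged from 0 to 2, beside 2.01% to 29.9%. The count of other pathway genes, 13, became 6 with the suffix as a term, beside 9.41%, and 1 with the file suffix, beside 1.15%. Over left-out libraries it ranged from 1 to 15, beside the same 2.01% to 29.9%. Between Sp3-/- and Sp3+/- cells, members called, 1 beside 25.5% of all genes, became 2 with DESeq2, beside 32.9%. The count was also 2 with only the genotypes compared, beside 23.1%, and with the suffix as a term, beside 5.4%. It became 0 with the file suffix, beside 0%. Over left-out libraries it ranged from 1 to 2, beside 10.6% to 30.1%. Pathway genes, 17, became 3 with the suffix and 0 with the file suffix, and ranged from 7 to 19. Leaving out libraries or adding a term lowers the residual degrees of freedom. Between Sp3-/- and WT cells the share of all genes called fell in some of these fits. In others it rose, to 29.9% without WT library 1. What moved the counts was not tested. Between Sp3+/- and WT cells 0 members and 0 pathway genes were called in all 20 alternatives. Notch3, the only member called in the main edgeR fits, did not change sign in either comparison with Sp3-/- cells. Among members not called in the main edgeR fits, Notch4, Jag2 and Heyl changed sign between Sp3-/- and WT cells. Between Sp3-/- and Sp3+/- cells Notch1, Notch2, Notch4 and Heyl did, Notch2 being among them although some alternatives called it. Some pathway genes that were not called, Hes1 among them, also did.

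Deviations of libraries with the same first title number but different genotypes correlated at -0.62 to 0.34 (median 0.1). Of these 14 pairs, 7 were over 0.1. Pairs with different numbers were at -0.52 to 0.71 (median -0.04), with 10 of 26 over 0.1. The ranges overlap, so the check cannot settle whether libraries with the same number share an origin. With the first title numbers as a replicate block, Notch2 was called at -0.76 (adjusted p = 0.00662, edgeR) between Sp3-/- and WT cells. In that fit 16 pathway genes were called, beside 28.7% of all genes. Between Sp3-/- and Sp3+/- cells the block gave calls of 1 member and 14 pathway genes, beside 20.9%. Using canonical transcript lengths was also chosen after seeing the data. Depth limits Dll1, Dll4 and Heyl, with at most 42 reads in a library.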
